A study of Mus musculus with 9 samples.

Results

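Matrix metalloproteinases (MMPs) and tissue inhibitors of metalloproteinases (TIMPs) were followed across 3 populations of splenic type 2 dendritic cells. The 9 genes, found by symbol among the 24054 genes listed in the deposited files, were the 6 MMP genes Mmp8, Mmp9, Mmp12, Mmp14, Mmp19 and Mmp25 and the 3 inhibitor genes Timp1, Timp2 and Timp3. Libraries came from C57BL/6 mice of the genotype Clec9a-Cre/Cre Rosa-tdTomato/tdTomato, in which Cre made from the Clec9a locus switches on the fluorescent protein TOMATO (TOM) for good, so that TOM marks cells with a history of Clec9a expression. Both alleles were carried by all 3 groups, which were young TOM+ cDC2 and young TOM- DC2 from postnatal day 8 and adult TOM+ cDC2, with 3 libraries each (1 adult library at 9 weeks, the others at 8 weeks). Cells were live, autofluorescence-negative, CD11c+, MHCII+ and CD11b+, and young libraries came from pools of several spleens. With no adult TOM- group among these samples, young TOM- DC2 and adults differ in both age and TOM. Libraries are named by group and by the number in their deposited names (81, 91, 92 or 95), whose meaning no source used here gives.

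MMPs are secreted or membrane-bound enzymes that cut collagens, elastin, basement membrane proteins, cytokines and surface receptors. Each holds a zinc ion in its catalytic centre between 3 histidines, and each is made as an inactive precursor whose propeptide must be removed. TIMPs are small secreted proteins that plug this centre with a conserved cysteine at their mature start. Dendritic cells are known to use MMPs when they cross basement membranes, and the balance of enzyme and inhibitor is commonly read from both families together. mRNA levels, which are what was measured here, say nothing of secretion, activation or inhibition.

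To show what the 6 MMPs share, the coding stretch of the zinc site was read from the transcript of each gene (GENCODE M21, GRCm38, which is mm10). Each stretch is 33 bases long, lies in a single exon and is printed 5' to 3' in the direction of the gene, with the 3 histidine codons in capitals. It lies at chr2:164951133-164951165 (exon 8, plus strand) for Mmp9, chr9:7352914-7352946 (exon 5, plus) for Mmp12, chr14:54437627-54437659 (exon 5, plus) for Mmp14, chr10:128795673-128795705 (exon 5, plus) for Mmp19, chr17:23632843-23632875 (exon 5, minus) for Mmp25 and chr9:7563086-7563118 (exon 5, plus) for Mmp8. Of the 33 bases, Mmp19 and Mmp25 shared 29 and Mmp8 and Mmp9 shared 20.
Mmp9: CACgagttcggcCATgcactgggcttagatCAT
Mmp12: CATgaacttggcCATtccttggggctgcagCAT
Mmp14: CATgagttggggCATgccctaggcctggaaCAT
Mmp19: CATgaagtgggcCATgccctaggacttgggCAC
Mmp25: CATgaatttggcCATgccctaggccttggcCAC
Mmp8: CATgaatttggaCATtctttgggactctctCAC

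For the inhibitors, the stretch of 39 bases that begins with the codon of that first cysteine is printed in the same way, with the codons of the first and the next cysteine in capitals. It lies at chrX:20871111-20871149 (exon 2, plus strand) for Timp1, chr11:118354974-118355012 (exon 1, minus) for Timp2 and chr10:86300923-86300961 (exon 1, plus) for Timp3. Any pair of these stretches shared 25 of 39 bases.
Timp1: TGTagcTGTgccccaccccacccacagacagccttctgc
Timp2: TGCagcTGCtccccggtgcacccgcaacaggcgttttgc
Timp3: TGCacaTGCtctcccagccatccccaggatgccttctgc

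Expression was read on 2 scales. Levels are given in TPM, transcript abundances that the authors scaled for transcript length and for the total of each library, so that genes can be set beside each other. Differences were tested on read counts with edgeR's quasi-likelihood test, fitted on all 9 libraries and on 14452 genes (mean count 1 or more), and a gene was called at an adjusted p under 0.05 together with a log2 fold change beyond 1 in either direction. Every log2 fold change is young TOM+ minus young TOM- between the young groups, and young minus adult in the comparisons with adults. A negative value in the latter means a higher level in adults. All 9 genes passed that filter. The shallowest library held 12783252 reads on genes and the deepest 22809401. A gene under 1 TPM therefore rested on few reads. The cDC markers (Zbtb46, Flt3, Itgax, Cd74 and H2-Ab1) and the 7 cDC2 markers were all detected above 1 TPM in each group. Libraries are bulk samples, so fewer cells that express a gene and less RNA per cell cannot be told apart. The libraries numbered 81 stood apart in both young groups: young TOM- 81 held 1173 TPM of erythroid and 44.1 TPM of neutrophil markers, and young TOM+ 81 and young TOM- 81 had the highest stromal sums, 11.1 and 7.15 TPM. Values without them are given where they matter.

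Mmp12, Mmp14 and Timp2 were detected in every library and were not called in any comparison. Mmp9 ran from near absence in young TOM+ cDC2 to a high level in adults, and Mmp25 was higher in adults than in both young groups. Mmp19, at low counts, was called higher in adults only against young TOM+ cDC2. Mmp8, Timp1 and Timp3 also stayed at low counts. In the plot of TPM by library these patterns are set side by side.

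**Figure D1:**
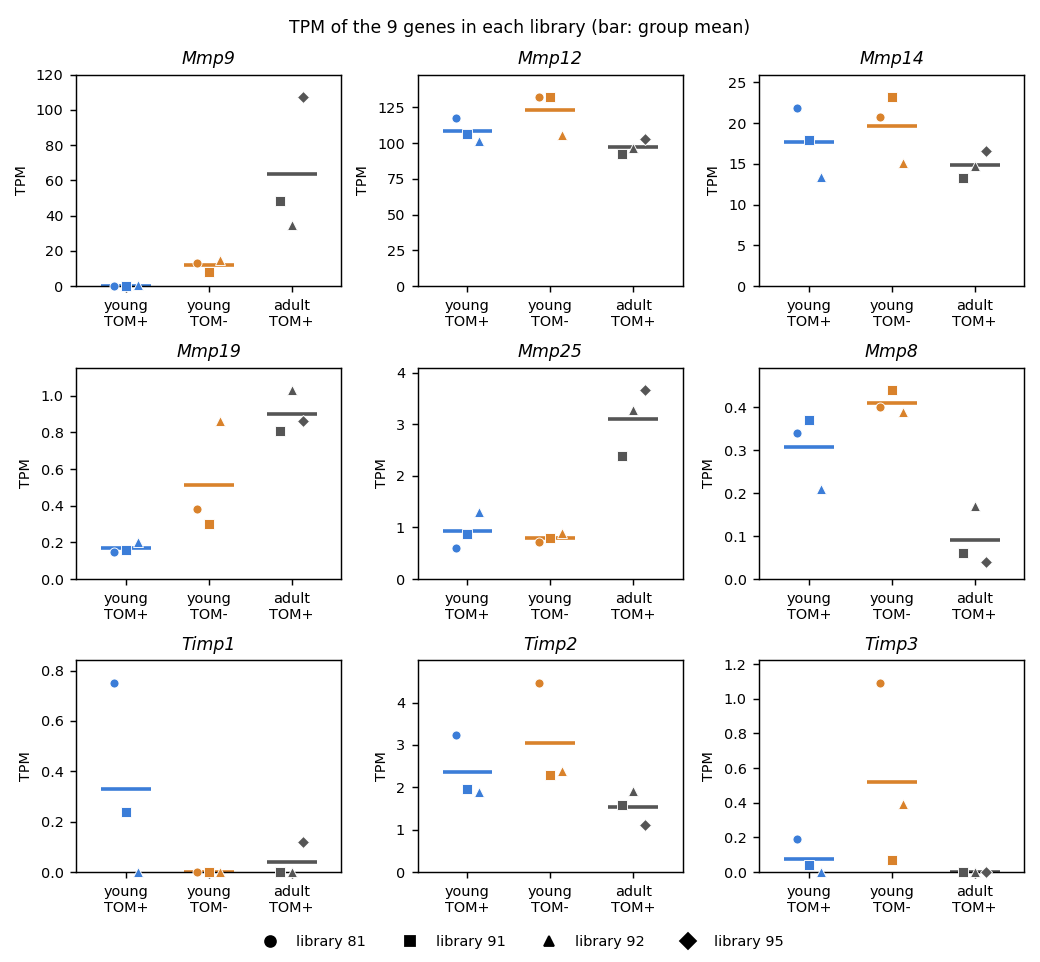
TPM (vertical axes, each from 0) of the 9 genes in the 9 libraries, grouped as young TOM+ cDC2, young TOM- DC2 and adult TOM+ cDC2; each point is 1 library, its shape gives the library number, and the bar is the group mean of 3 libraries. Mmp12 lies between 92.04 and 132 TPM in every library, whereas Mmp9 runs from 0.06 to 107 TPM with no overlap between the groups.

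The gelatinase gene Mmp9 (chr2:164940780-164955850, plus strand) encodes an enzyme that degrades denatured collagen and type IV collagen of basement membranes. It was at 0.17, 0.06 and 0.32 TPM in young TOM+ libraries 81, 91 and 92, at 12.9, 7.90 and 14.7 TPM in young TOM- libraries 81, 91 and 92, and at 48.5, 34.7 and 107 TPM in adult libraries 91, 92 and 95. The groups followed each other in this order with no overlap, and library 95 was the highest of the adults. The counts behind the young TOM+ values were 7, 2 and 12 reads, against 817 to 3287 reads in adults. In rank of mean TPM among the 14452 tested genes, Mmp9 stood at 12696 in young TOM+ cDC2, 7265 in young TOM- DC2 and 2462 in adults.

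Mmp9 was the single MMP or TIMP gene called in all 3 comparisons. Between the young groups its log2 fold change, TOM+ minus TOM-, was -5.86 (SE 0.59, edgeR adjusted p = 0.000174). Against adults it was -8.41 in young TOM+ cDC2 (SE 0.56, edgeR adjusted p = 6.04e-07), a level 340 times lower than in adults. That fold rests on very few reads in the young TOM+ libraries and was 515 without young TOM+ library 92. In young TOM- DC2 the log2 fold change to adults was -2.55 (SE 0.35, edgeR adjusted p = 0.000133), a level 5.86 times lower, which was 3.93 times lower without adult library 95.

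Neutrophils store MMP9 in granules and are its best known source in blood, so their markers were read beside it. Of the 14 neutrophil markers in the files, 9 were at 0 in all 3 adult libraries, S100a8 among them, and their summed level of 8.46 to 11.0 TPM in adults was nearly all Csf3r (8.12 to 10.4 TPM). The sum was 5.61 to 6.23 TPM in young TOM+ cDC2. In young TOM- DC2 it was 44.1 TPM in library 81, where Ngp reached 15.5 and S100a8 7.68 TPM, but 5.97 and 5.88 TPM in libraries 91 and 92. Mmp9 was at 14.7 TPM in library 92 and 12.9 TPM in library 81, and without both libraries numbered 81 its log2 fold change between the young groups was -5.81 (edgeR adjusted p = 0.00134). The part of neutrophil RNA in the Mmp9 levels was not tested further.

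Of the 7 markers of migratory cDC, 5 were called higher in adults than in either young group by edgeR. Of all tested genes, 6.86% were called higher in adults than in young TOM+ cDC2, and 4.78% than in young TOM- DC2. Between the young groups 0 of the 7 were called by edgeR, DESeq2 or limma, and 2 (Cacnb3 and Ccr7) had an unadjusted edgeR p under 0.05. Il4i1, 1 of the 7, had only 5 to 36 reads per library in the tested counts, at 59.0 to 319 TPM. The 7 markers summed to 524 to 579 TPM in young TOM+, 610 to 759 TPM in young TOM- and 1966 to 3026 TPM in adult libraries, with the highest sum in adult 95, the library of highest Mmp9. Their best known gene, the chemokine receptor gene Ccr7, was at 307 ± 18.0, 421 ± 73.2 and 1790 ± 466 TPM (mean ± SD, n = 3 each). In adult libraries Ccr7 made up most of the sum, at 2328 of 3026 TPM in adult 95. Fscn1 and Ccl22 overlapped between adults (152 to 201 and 13.9 to 26.4 TPM) and young TOM+ cDC2 (106 to 178 and 16.3 to 16.5 TPM). The part of migratory cDC in the Mmp9 levels was not tested.

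**Figure D2:**
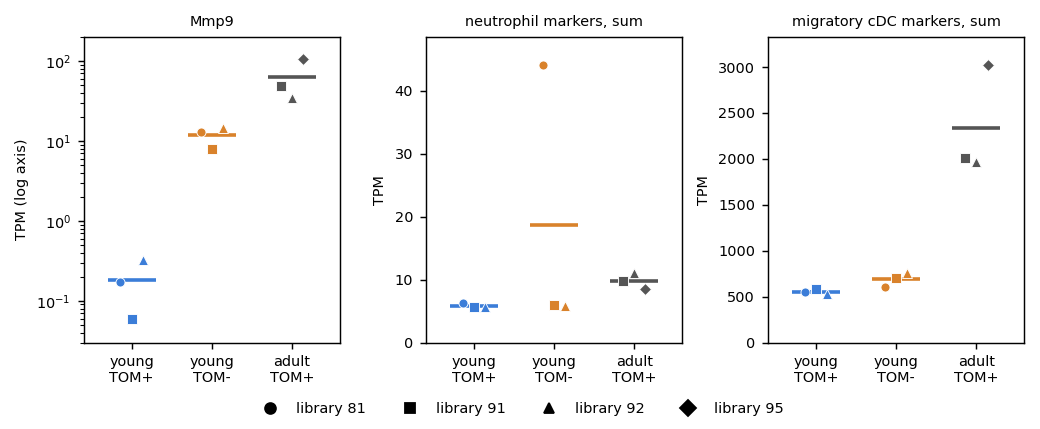
Mmp9 (TPM, log axis), the summed TPM of the 14 neutrophil markers in the files and the summed TPM of 7 migratory cDC markers (linear axes from 0) in each of the 9 libraries; points are libraries, shapes give library numbers and bars are group means. The neutrophil sum is highest in young TOM- library 81 (44.1 TPM) and lies between 8.46 and 11.0 TPM in adults, above the other 5 young libraries, and the migratory sum is highest in adult library 95 (3026 TPM), as is Mmp9 (107 TPM).

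The macrophage elastase gene Mmp12 (chr9:7344381-7369499, plus strand), named for cutting elastin and also able to cut many other matrix proteins, was the most abundant of the 9 genes in all libraries except adult 95, where Mmp9 was slightly higher. It was at 117, 107 and 102 TPM in young TOM+ libraries 81, 91 and 92, at 132, 132 and 106 TPM in young TOM- libraries, and at 92.04, 96.9 and 103 TPM in adult libraries 91, 92 and 95. Young TOM+ libraries overlapped both other groups, young TOM- libraries lay just above adults in TPM, and most tested genes had a lower mean TPM in each group (88.8%, 90.3% and 88.6% of them). None of its differences passed the test. The log2 fold change was -0.16 between the young groups (95% interval -0.35 to 0.04). It was -0.01 for young TOM+ minus adult (95% interval -0.21 to 0.19) and 0.15 for young TOM- minus adult (95% interval -0.05 to 0.34). These intervals exclude a change by a log2 of 1 in either direction. The 9 macrophage markers in the files summed to 135 to 168, 215 to 267 and 92.4 to 136 TPM in the 3 groups, also highest in young TOM- DC2, and their part in the Mmp12 level was not tested.

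Mmp12 lies in a cluster of MMP genes, of which it was the single one above 1 TPM in any library. On chromosome 9 the annotation holds 9 protein-coding MMP genes within 427 kb (chr9:7272514-7699585), in the order Mmp13, Mmp12, Mmp1b, Mmp3, Mmp10, Mmp8, Mmp27, Mmp20 and Mmp7. Mmp3, Mmp10 and Mmp27 were listed at 0 in all 9 libraries, and Mmp1b, Mmp7, Mmp8, Mmp13 and Mmp20 reached at most 0.61 TPM in any library. Exons of Mmp12 overlap those of Mmp1b on the opposite strand over 157 bases, but Mmp1b reached no more than 0.07 TPM.

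Mmp14 (chr14:54431612-54445364, plus strand), which encodes the membrane-anchored enzyme that cuts collagen at the cell surface and activates proMMP2, was also expressed in every library. It was at 21.8, 17.9 and 13.4 TPM in young TOM+ libraries 81, 91 and 92, at 20.8, 23.2 and 15.1 TPM in young TOM- libraries and at 13.3, 14.7 and 16.6 TPM in adult libraries 91, 92 and 95. All 3 groups overlapped, and in each young group library 92 was the lowest. The log2 fold change was -0.12 (95% interval -0.50 to 0.25) between the young groups. It was 0.12 (95% interval -0.26 to 0.50) for young TOM+ minus adult and 0.24 (95% interval -0.14 to 0.62) for young TOM- minus adult, with no call. Mmp2, the gelatinase gene whose product MMP14 activates, was at 0.54 to 0.67, 0.70 to 0.96 and 0.09 to 0.24 TPM in the 3 groups, with about 18.4 reads per library on average.

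Mmp25 (chr17:23628311-23645277, minus strand) encodes a membrane-type MMP held by a lipid anchor and first known from leukocytes. Its level was 0.60, 0.87 and 1.30 TPM in young TOM+ libraries 81, 91 and 92, 0.72, 0.79 and 0.90 TPM in young TOM- libraries and 2.38, 3.28 and 3.66 TPM in adult libraries 91, 92 and 95. Adults lay above all young libraries, and the young groups overlapped. For young TOM+ cDC2 minus adults the log2 fold change was -1.90 (SE 0.29, edgeR adjusted p = 0.000241), a level 3.73 times lower than in adults. For young TOM- DC2 minus adults the log2 fold change was -2.08 (SE 0.29, edgeR adjusted p = 0.000172), a level 4.23 times lower than in adults. Between the young groups it was 0.18 (95% interval -0.49 to 0.85). The counts were 23 to 55 reads in young and 64 to 124 in adult libraries.

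The RefSeq promoter table used (GRCm38.p6) holds entries for 7 of the 9 genes, without Mmp9 and Mmp19. The promoter of Mmp25 (chr17:23645220-23645519, minus strand, 250 bases before to 50 bases after the start) is shown because the gene was higher in adults than in both young groups, with capitals on matches to the NF-kB consensus. Matches on both strands were counted, and the same bases matched on both were counted once.
Mmp25 promoter: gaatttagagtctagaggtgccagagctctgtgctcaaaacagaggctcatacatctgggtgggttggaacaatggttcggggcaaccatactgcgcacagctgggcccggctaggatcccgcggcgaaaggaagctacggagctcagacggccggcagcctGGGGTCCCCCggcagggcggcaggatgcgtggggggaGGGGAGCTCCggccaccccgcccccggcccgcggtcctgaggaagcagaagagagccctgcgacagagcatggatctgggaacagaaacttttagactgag
The 2 matches begin 88 and 51 bases before the start. Of 32851 promoters in the table, 8.46% hold at least 1 such match and 1.22% hold 2 or more. Among the entries of the other 6 genes, 1 of the 2 for Mmp12 held a single match, 129 bases before its start, and the rest held none. The AP-1 and PU.1 motifs were searched as well. Mmp25, Mmp8 and that Mmp12 entry each held 1 PU.1 match and 0 AP-1 matches. The other Mmp12 entry held 1 AP-1 match, and the remaining genes held neither motif. Of all promoters, 7.81% held an AP-1 match and 13.6% a PU.1 match. A match of letters is a description and not a shown binding site.

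Mmp19 (chr10:128790910-128800824, plus strand), a secreted MMP that cuts basement membrane proteins, was low in all libraries but followed the same order as Mmp9. It was at 0.15, 0.16 and 0.20 TPM in young TOM+ libraries 81, 91 and 92, at 0.38, 0.30 and 0.86 TPM in young TOM- libraries and at 0.81, 1.03 and 0.86 TPM in adult libraries 91, 92 and 95. Young TOM+ libraries lay below all others, and young TOM- library 92 reached the adult range. For young TOM+ cDC2 minus adults the log2 fold change was -2.75 (SE 0.49, edgeR adjusted p = 0.000768). The level was 6.74 times lower in young TOM+ cDC2 than in adults, on 4 to 5 reads against 16 to 27. Mmp19 missed the test between the young groups, with a log2 fold change of -1.61 (95% interval -2.71 to -0.51, edgeR adjusted p = 0.208), and between young TOM- DC2 and adults, at -1.14 (95% interval -2.08 to -0.21, edgeR adjusted p = 0.0555). The latter was called without young TOM- library 92, at -1.76 (edgeR adjusted p = 0.0158), and with the library number as a block in the young groups, at -1.26 (edgeR adjusted p = 0.0247), but not with the block in all libraries, at -1.01 (edgeR adjusted p = 0.107). A stricter count filter (edgeR's filterByExpr) called it too, with an edgeR adjusted p of 0.0327.

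The Mmp19 counts are also the least certain. Its exons overlap those of Tmem198b and Gm47093 on the opposite strand over 1001 of 3533 exonic bases in GENCODE M21, and the counting used no strand. Over all libraries STAR assigned 125 reads to Mmp19 without regard to strand but 559 when the strands were counted apart and added, whereas for Mmp9 both ways gave 6516. RSEM, which divides such reads, gave an expected count of 149.7. Tmem198b itself was at 3.81 to 4.67 TPM in young TOM+, 4.29 to 5.16 TPM in young TOM- and 6.32 to 9.03 TPM in adult libraries, so it was higher in adults too, and its part in the Mmp19 counts was not tested.

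The neutrophil collagenase gene Mmp8 (chr9:7558456-7568485, plus strand) was at 0.34, 0.37 and 0.21 TPM in young TOM+ libraries 81, 91 and 92, at 0.40, 0.44 and 0.39 TPM in young TOM- libraries and at 0.06, 0.17 and 0.04 TPM in adult libraries 91, 92 and 95. In TPM adults lay below both young groups, on 1 to 4 reads against 6 to 13. For young TOM- DC2 minus adults the log2 fold change was 1.68 (SE 0.61, edgeR adjusted p = 0.0492), called higher in young TOM- DC2. That call was close to the threshold and held in 3 of 16 other settings, with adjusted p from 0.00408 to 0.199. It was lost with the library number as a block in the young groups (edgeR adjusted p = 0.0523). For young TOM+ cDC2 minus adults the log2 fold change was 1.24 (95% interval -0.12 to 2.6) and between the young groups -0.44 (95% interval -1.56 to 0.68), neither called. The part of neutrophil RNA in the Mmp8 levels was not tested.

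Of the inhibitors, only Timp2 was detected throughout. Timp2 (chr11:118301069-118355740, minus strand), whose product inhibits MMPs and also links proMMP2 to MMP14 for activation, was at 3.23, 1.96 and 1.88 TPM in young TOM+ libraries 81, 91 and 92, at 4.46, 2.29 and 2.39 TPM in young TOM- libraries and at 1.58, 1.92 and 1.11 TPM in adult libraries 91, 92 and 95. The highest level in each young group was in library 81, and on this scale young TOM- lay above adults with no overlap. The log2 fold change was -0.29 between the young groups (95% interval -0.91 to 0.34). It was 0.53 for young TOM+ minus adult (95% interval -0.13 to 1.20) and 0.82 for young TOM- minus adult (95% interval 0.16 to 1.49, edgeR adjusted p = 0.0526). None was called, although without adult library 92 the last rose to 1.04 (edgeR adjusted p = 0.042) and was called.

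Timp3 (chr10:86300372-86349506, plus strand, inside the Syn3 gene), the inhibitor that binds to matrix and also blocks ADAM17, was patchy. Its counts were 10, 2 and 0 reads in young TOM+ libraries 81, 91 and 92, 43, 3 and 25 in young TOM- libraries and 0 in all adult libraries. A count of 0 leaves up to 3 reads undetected per library, and against that floor young TOM- DC2 were at least 5.63-fold higher than adults (edgeR adjusted p = 0.0135), or at least 2.61-fold without young TOM- library 81. No fold to adults is given for young TOM+ cDC2, whose mean lay under the floor. Between the young groups the log2 fold change was -2.62 (SE 1.04, edgeR adjusted p = 0.428), which was called only with the library number as a block in all libraries (-2.74, edgeR adjusted p = 0.0318). The highest Timp3 in each young group was in library 81, which also had the highest stromal marker sum of its group, and the part of stromal RNA was not tested.

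Timp1 (chrX:20870166-20874735, plus strand, inside the Syn1 gene), a secreted inhibitor that inflammatory stimuli often induce, was at or near 0. It had 7, 2 and 0 reads in young TOM+ libraries 81, 91 and 92, 0 in the young TOM- libraries, and 0, 0 and 1 in adult libraries 91, 92 and 95. No comparison called it.

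Counted together, 1 of the 9 genes was called between the young groups, where 1.18% of tested genes were called. That gene, Mmp9, was higher in TOM- DC2, as were 1.16% of tested genes. From young TOM+ cDC2 to adults, 3 of 9 (Mmp9, Mmp19 and Mmp25) were called, all higher in adults, against 12.8% of tested genes called and 6.86% called and higher in adults. From young TOM- DC2 to adults, 4 of 9 were called, against 11.3% of tested genes. Mmp9 and Mmp25 were higher in adults, as were 4.78% of tested genes, and Mmp8 and Timp3 were higher in young TOM- DC2, as were 6.5%. The comparisons share groups, so their counts are not independent, and the 9 genes were chosen by family and with earlier results known. The median log2 fold change of the 9 genes was -0.29, 0.12 and 0.15 in the 3 comparisons, beside 0.00, 0.05 and 0.07 over all tested genes.

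**Figure D3:**
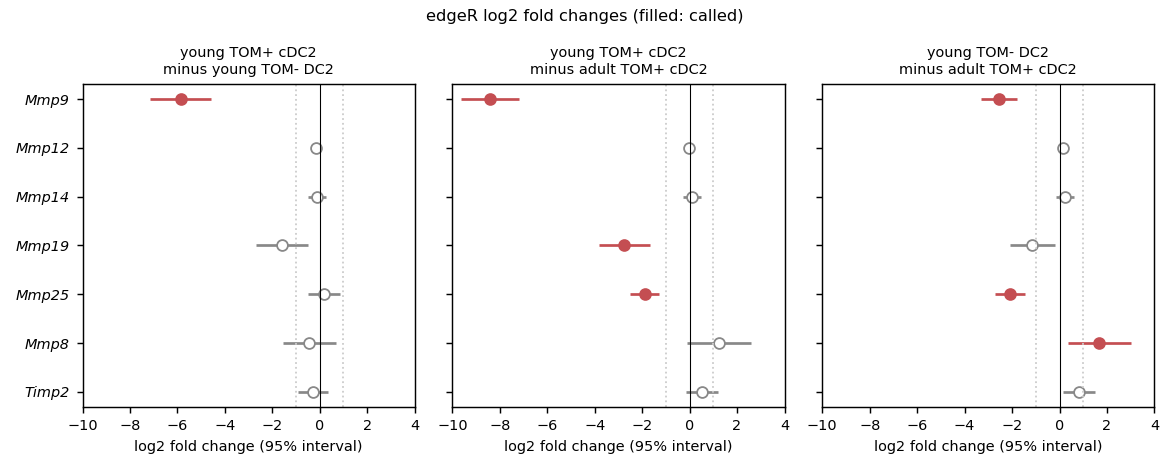
edgeR log2 fold changes (horizontal axes, first group minus second) with 95% intervals for the 6 MMP genes and Timp2 in the 3 comparisons; filled points are called, and dotted lines mark a log2 fold change of 1 in either direction. Timp1 and Timp3, with 0 reads in several libraries, are not drawn. Mmp9 is called in all 3 panels (-5.86, -8.41 and -2.55), while Mmp12 and Mmp14 lie at 0 within 0.25 in each.

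Summed over the 6 MMPs, the levels were 128 ± 11.7 TPM in young TOM+ cDC2, 157 ± 16.3 TPM in young TOM- DC2 and 180 ± 44.6 TPM in adults (mean ± SD, n = 3 each). Without Mmp9 they were 128 ± 11.7, 145 ± 18.7 and 116 ± 7.62 TPM. The adult mean with Mmp9 rests on library 95, at 231 TPM, since the adult libraries 91 and 92, at 157 and 151 TPM, lay within the range of young TOM- DC2 (138 to 167 TPM). Mmp12 made up 85.0% of the sum in young TOM+, 78.7% in young TOM- and 55.8% in adult libraries on average, while Mmp9 made up 0.147%, 7.73% and 33.4%. In adult library 95 the share of Mmp9 was 46.4% and passed that of Mmp12, 44.4%. Mmp14 contributed 13.7%, 12.5% and 8.47%.

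**Figure D4:**
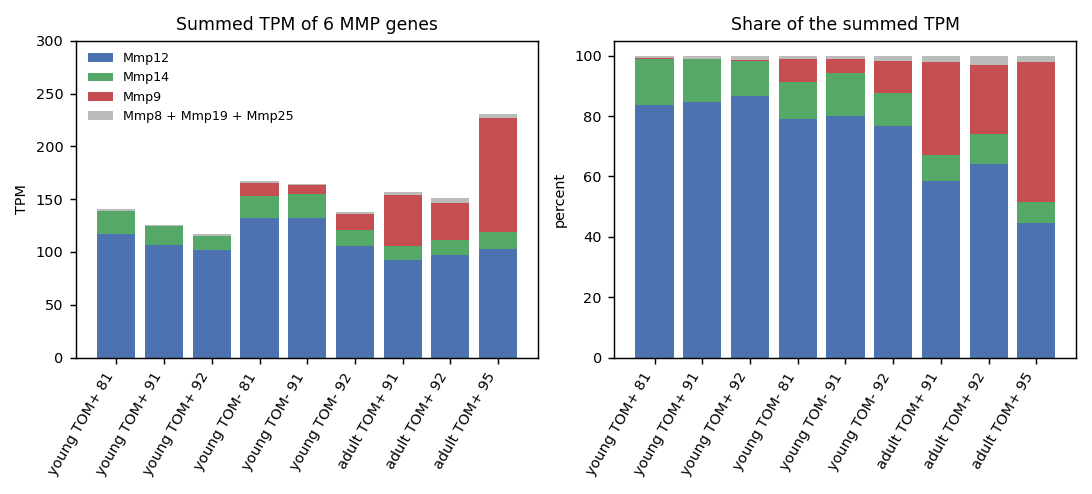
Summed TPM of the 6 MMP genes in each of the 9 libraries (left, TPM from 0) and the share of each gene in that sum (right, percent), with Mmp8, Mmp19 and Mmp25 drawn together. Mmp12 and Mmp14 make up nearly all of the sum in young TOM+ cDC2, and Mmp9 takes 23.0% to 46.4% of it in the adult libraries.

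The 3 TIMPs summed to 2.76 ± 1.23 TPM in young TOM+, 3.56 ± 1.73 TPM in young TOM- and 1.58 ± 0.345 TPM in adult libraries. Timp2 made up 88.3%, 87.8% and 96.7% of that sum. The sum lay far below that of the MMPs in every library (at most 5.55 TPM, against at least 117 TPM), and these sums of mRNA were not tested between groups. The ratio of Mmp14 to Timp2, the pair that works together on proMMP2, was 7.68 ± 1.29, 7.03 ± 2.80 and 10.3 ± 4.03.

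Of the other 17 MMP genes listed and Timp4, 18 in all, 8 passed the filter, and Timp4 was listed at 0 in all libraries. The gene with the most reads among those called was Mmp23, which encodes a membrane MMP that lacks the usual propeptide switch. It was at 6.70, 6.13 and 3.42 TPM in young TOM+ libraries 81, 91 and 92, at 15.2, 13.1 and 12.5 TPM in young TOM- libraries and at 7.07, 9.93 and 9.99 TPM in adult libraries 91, 92 and 95. Young TOM- libraries were the highest, without overlap, and the log2 fold change between the young groups was -1.34 (SE 0.22, edgeR adjusted p = 0.00575). Without both libraries 81 it was also called from young TOM+ cDC2 to adults, higher in adults. Mmp2 was called higher in young TOM+ cDC2 (log2 fold change 1.25) and in young TOM- DC2 (1.60) than in adults, and Mmp13 higher in young TOM- DC2 (3.04); both have few reads and were named after their values were seen. The median log2 fold change of the 8 tested genes was -0.82, -0.32 and 0.39 in the 3 comparisons.

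Among 17 genes that activate or restrain MMPs, such as Furin, Plau and Cd44, 15 were tested and 0 were called between the young groups by edgeR, DESeq2 or limma, with 2 (Lcn2 and Serpinb2) at an unadjusted edgeR p under 0.05. From young TOM+ cDC2 to adults 2 of 15 were called, a share near the 12.8% of all tested genes. Serpinb2, an inhibitor of plasminogen activators, was higher in adults, at 8.06 to 10.4 TPM against 4.07 to 4.93 TPM (log2 fold change -1.15, SE 0.17, edgeR adjusted p = 0.000184). Reck, a membrane-bound MMP inhibitor named after its values were seen, was higher in young TOM+ cDC2 (log2 fold change 1.07) and in young TOM- DC2 (1.28), at 0.55 to 1.06 TPM in young and 0.24 to 0.34 TPM in adult libraries. The list's medians of -0.13, 0.11 and 0.27 stood beside 0.00, 0.05 and 0.07 over all genes.

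The ADAM and ADAMTS proteinases, relatives of the MMPs that TIMP3 can also inhibit, numbered 22, of which 18 were tested. Adam19 was at 10.6 to 14.9 TPM in young TOM+, 6.60 to 10.3 TPM in young TOM- and 34.6 to 40.8 TPM in adult libraries. Both young groups lay below adults, with log2 fold changes of -1.78 (SE 0.18, edgeR adjusted p = 1.32e-05) and -2.45 (SE 0.19, edgeR adjusted p = 2.32e-06). Adam12, named after its values were seen, was at 1.05 to 1.68 TPM in young TOM- libraries and at most 0.02 TPM in all others, and was called in both comparisons of young TOM- DC2. The remaining tested genes of the list were not called with all 9 libraries. Without both libraries 81, Adam23 was called higher in adults in both comparisons with adults, and Adamtsl4 in that with young TOM+ cDC2; both are named after their values were seen.

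Genes for the matrix proteins that MMPs cut were called in a single direction against adults. Of 21 listed, 20 were tested; 7 were higher in young TOM+ cDC2 and 5 in young TOM- DC2 than in adults, where 5.96% and 6.5% of all tested genes were called in that direction. None was lower, and 0 were called between the young groups by edgeR. There, 2 (Dcn and Nid1) had an unadjusted edgeR p under 0.05, DESeq2 called 1 (Nid1) and limma 0. The list's median log2 fold changes to adults were 3.05 and 3.03, beside 0.05 and 0.07 over all genes. These medians rest in part on counts near 0: Col1a1, Col3a1 and Eln had 0 reads in every adult library. The called genes Lama5 and Eln averaged 2.9 and 5.3 reads per library. Nid2, a basement membrane nidogen, was even across the young libraries, at 2.29 to 2.86 TPM in TOM+ and 2.18 to 2.43 TPM in TOM-, against 0.11 to 0.39 TPM in adults (log2 fold changes 3.19 and 2.96). Sparc, a collagen-binding protein, was instead carried by library 81, at 12.8 TPM in young TOM+ and 12.9 TPM in young TOM-, against 0.55 to 2.97 TPM in the other young libraries and at most 0.26 TPM in adults. Col4a1, a type IV collagen chain, was at 4.08 and 3.47 TPM in the libraries numbered 81 and at most 0.53 TPM elsewhere. Without both libraries 81, 8 of 16 tested genes were called higher in young TOM+ cDC2 and 3 of 16 in young TOM- DC2 than in adults, and Nid1 was called between the young groups, higher in TOM- DC2. The median log2 fold change of the 16 genes was then 3.13 for young TOM+ cDC2 but 1.09 for young TOM- DC2 against adults, beside 0.02 and 0.04 over all genes. Stromal marker sums were 0.57 to 11.1 TPM in young TOM+, 3.10 to 7.15 TPM in young TOM- and 0.60 to 0.85 TPM in adult libraries. The marker Lum, named after its values were seen, held 1.95 to 2.26 TPM of the young TOM- sums. It was at most 0.04 TPM in young TOM+ and at 0 in adult libraries. The part of stromal RNA in the levels of the matrix genes was not tested.

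Genes whose log2(TPM + 1) followed a called member most closely over the 9 libraries were listed as a description, among genes with a group mean of at least 5 TPM. The 9 points share their groups, so any gene ordered like the groups scores high. For Mmp9 these were Serpinb6b (Pearson's r 0.99), Snn (0.99) and Ms4a1 (0.99). Serpinb6b, a proteinase inhibitor gene, had mean levels of 5.45, 15.9 and 27.9 TPM in young TOM+, young TOM- and adult libraries. Ms4a1, which encodes CD20, had 2.46, 7.80 and 16.9 TPM, while the summed B cell markers were lower in adults (41.1 to 54.0 TPM) than in either young group (61.0 to 80.8 TPM). For Mmp25 they were Lats2 (0.99), Zfand5 (0.98) and Agpat4 (0.98), and for Mmp19 Gna13 (0.97), I730030J21Rik (0.96) and Bpnt1 (0.96). For Mmp8 they were Actn1 (0.98), Tmsb15b1 (0.97) and Lxn (0.97), and for Timp3 Anxa7 (0.95), Tspyl4 (0.95) and Dhx32 (0.94), in both cases on a member with few reads.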

How the data were processed

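mRNA of sorted splenic DC2 was copied with a protocol that keeps no strand information, and the authors mapped single-end reads to mm10 with STAR and quantified them with RSEM, per the labels and the study's methods. The authors deposited STAR's read counts per gene (unstranded column used), RSEM expected counts and TPM. STAR's summary lines, 26.1% to 31.6% of all reads, were left out. Versions of STAR and RSEM are not given in the sources used here.

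Counts were tested in R 4.3.3 with edgeR 4.0.16 (TMM factors 0.894 to 1.08, quasi-likelihood test, all 9 libraries in 3 groups, Benjamini-Hochberg over all tested genes). Intervals are 95% intervals from that fit. Fold bounds use a floor of 3 counts per library, which covers counting error only. Alternatives were DESeq2 1.42.0, its size factors, expected counts rounded to whole numbers, limma 3.58.1 on log2(TPM + 1) and log2(TPM + 0.1), other count filters, only the compared groups, each library left out, a replicate block, and CPM in place of TPM for levels. Leaving out both young libraries 81 was chosen after seeing the data. In a simulated comparison of the young groups with 14239 genes, 200 of them changed, edgeR recovered 98% with 2 false calls. The changed genes were drawn only from genes with more reads than the filter required, with log2 changes well beyond the threshold. Recovery of genes with few reads, such as Mmp8, Timp1 and Timp3, or of changes near the threshold was not simulated.

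Young libraries of the same number deviated together from their group means (r = 0.50, 0.18 and 0.33 for 81, 91 and 92). Pairs of unlike number ranged from -0.41 to 0.19, the highest being young TOM+ 92 with young TOM- 91. That value was slightly above the one for 91 with 91, so a pairing by number is clear for 81 and 92 only. The main test used no block for the number. What the number marks is not stated, and where libraries share mice, p-values measure only the spread between these libraries. The 9 genes and all gene lists were chosen with earlier results of these data known. Named genes are the 9 members, genes of related lists called in at least 1 comparison with an average count of at least 50 (at most 6 per list), and the 3 closest genes per called member. Sequences came from GENCODE M21 transcripts and RefSeq promoters.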

Additional observations from a re-analysis of the deposited data

How the results depend on the processing

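Mmp9 was called in all 17 alternatives of each comparison, and Mmp25 in all 17 of both comparisons with adults. Their folds were smaller with limma on log2(TPM + 1): for Mmp9 10.6 between the young groups and 48.9 from young TOM+ cDC2 to adults, and for Mmp25 2.14 and 2.26 from young TOM+ cDC2 and young TOM- DC2 to adults. On log2(TPM + 0.1) the Mmp9 fold from young TOM+ cDC2 to adults was 215. The call of Mmp19 from young TOM+ cDC2 to adults was lost with limma on log2(TPM + 1), where its log2 fold change was -0.70, and so was that of Timp3 from young TOM- DC2 to adults (0.55). Of 430 recomputed log2 fold changes, 400 kept their direction and side of the threshold, 15 kept direction but lost the call, 6 gained it and 9 changed sign.

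With the library number as a replicate block in the young groups, 1 member and 211 genes were called between the young groups, and with the block in all libraries 2 members (Mmp9 and Timp3) and 274 genes. With the block in the young groups, the calls from young TOM- DC2 to adults gained Mmp19 (-1.26) and lost Mmp8 (1.69); the block changed no other member's call there or from young TOM+ cDC2 to adults. limma on log2(TPM + 1) called 2 members from young TOM- DC2 to adults, and 1122 and 986 genes in the comparisons of young TOM+ cDC2 and young TOM- DC2 with adults. Leaving out 1 library gave 126 to 176, 1638 to 1868 and 1486 to 1646 called genes in the 3 comparisons.

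Signs changed only for small, uncalled differences. With 1 library left out, the log2 fold change between the young groups ran from -0.27 to 0.040 for Mmp14 (above 0 without young TOM+ 92, at 0.030, or young TOM- 91), from -0.20 (without young TOM+ 92) to 0.44 for Mmp25 and from -0.56 to 0.016 (without young TOM- 81) for Timp2. From young TOM+ cDC2 to adults it ran from -0.036 to 0.0004 (without adult 95) for Mmp12 and from -0.020 (without young TOM+ 81) to 0.25 for Mmp14. Mmp12 was 0.16 on both TPM scales, and Mmp14 was -0.043 without both libraries 81. On log2(TPM + 0.1) the median of all genes stood at 0.17 and 0.22 in the comparisons with adults, beside 0.05 and 0.07 on counts, and on log2(TPM + 1) at 0.10 and 0.14. The causes were not tested. Genes under 1 TPM rest on few reads, which limits Mmp8, Mmp19, Timp1 and Timp3.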
